A study of Mus musculus with 8 samples.

Results

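The C-type lectin receptor genes described here are the protein-coding mouse genes whose symbol starts with *Clec* and a digit, or with *Cd209*. There were 39 of them among the 55416 genes counted. Of the 39, 25 passed the expression filter, as did 18560 genes in all. The sequenced tissue was 1 side of the lung of female C57BL/6J mice aged 6 to 8 weeks, taken about 24 h after endotoxin was given. Control mice (numbers 1, 2 and 4) received DMSO into the tail vein and saline into the peritoneum 0.5 h later. LPS, a bacterial endotoxin, was given at 35 mg/kg to LPS mice 1, 6 and 7, for which a DMSO injection is not stated. In the dual-treatment group (mice 2 and 5), 10 mg/kg of YW3-56 in DMSO, which inhibits the enzymes that turn arginine into citrulline, preceded the same LPS dose by 0.5 h. No lung with YW3-56 alone was analysed here, so that a change in the dual-treatment group is that of both agents together.

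C-type lectin receptors are membrane proteins of macrophages, dendritic cells, neutrophils and some endothelial cells that bind sugars, lipids and proteins of microbes and of damaged cells. Activating members such as Dectin-1, Dectin-2 and Mincle signal through Syk and the Card9, Bcl10 and Malt1 complex, directly or with the adaptors Fcer1g and Tyrobp, while inhibitory members recruit the phosphatases Ptpn6 and Ptpn11. The Cd209 genes are the mouse relatives of human DC-SIGN, a receptor of dendritic cells and macrophages for mannose and fucose, and other members are matrix or endothelial proteins that carry the same lectin fold.

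Total counts were 19061949, 19796242 and 20527836 in control mice 1, 2 and 4. They were 20818501, 19379911 and 19279724 in LPS mice 1, 6 and 7, and 19875939 and 20908608 in dual-treated mice 2 and 5. Depth therefore differed little between libraries. Levels are given as CPM after TMM normalization. Lung epithelium markers were abundant in every library, with a summed level of 62100, 64100 and 68400 CPM in control, 88900, 71800 and 66400 in LPS and 35700 and 49700 in dual-treated mice, *Scgb1a1* being the most abundant of the 6 genes.

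Some libraries stood apart in transcripts of other tissues. The 9 matched squamous epithelium markers, of which *Krt13* was the most abundant, summed to 720 and 2050 CPM in LPS mice 6 and 7, against 1.36 in LPS mouse 1, 7.34, 7.32 and 5.47 in control and 3.09 and 5.31 in dual-treated mice. The 8 skeletal muscle markers, led by *Acta1*, summed to 547 and 1280 CPM in LPS mice 6 and 7, against 53.2 in LPS mouse 1, 25.4, 71.1 and 42.2 in control and 15.2 and 15.0 in dual-treated mice. LPS mice 6 and 7 were thus high in both lists and LPS mouse 1 was not. Dual-treated mouse 2 was high in the 6 B cell markers, with 1370 CPM, nearly all from *Ighm*. The other dual-treated mouse had 97.6 CPM, and the remaining mice had 99.3, 103 and 99.0 in control and 108, 135 and 98.2 in LPS. The part of these libraries in the results was examined by leaving them out.

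A member was called when its fold change was over 2 and its adjusted p was under 0.05, with the quasi-likelihood test of edgeR and Benjamini-Hochberg adjustment over all 18560 genes. With LPS, 4 of the 25 tested members were higher than in control lungs, or 16%, against 17.9% of all tested genes, and 13 were lower, or 52%, against 21.3%. Among the 13, *Cd209b*, *Cd209c*, *Cd209f*, *Clec4b1* and *Clec4g* had at most 6 counts in any LPS library and passed the filter through control counts. A member that passed that way could hardly be called other than lower, so the 52% depends in part on the filter. That also holds for *Cd209c* with the dual treatment. Where at least 10 counts were required in every library, 6 of 18 members were lower with LPS, or 33.3% against 19.1%. With the dual treatment, 8 members were higher than in control, or 32%, against 5.25% of all genes, and 3 were lower, or 12%, against 1.9%. Set against LPS lungs, the dual-treated lungs had 12 members higher, or 48%, against 19.8%, and 1 was lower, or 4%, against 14%. The median log2 fold change (log2FC) of the 25 members was -1.032 with LPS, -0.153 with the dual treatment and 1.094 between the treatments, against -0.01, 0.004 and 0.06 over all tested genes. Comparisons that use the same control or LPS mice are not independent of each other. Without LPS mice 6 and 7, 27 members were tested, of which 4 were higher with LPS, or 14.8% against 15.9% of all genes, and 8 lower, or 29.6% against 19.7%. Between the treatments 10 of these 27 were then higher in dual-treated lungs, or 37% against 18.1%, and 3 lower, or 11.1% against 12.3%. Without dual-treated mouse 2, 7 of 26 members were higher with the dual treatment than in control, or 26.9% against 3.05%, and 3 were lower, or 11.5% against 0.798%. The 3 members lower with the dual treatment than in control became 5 without LPS mouse 7 (20% against 2.15% of all genes) and 5 without dual-treated mouse 5 (18.5% against 3.62%). The 1 member lower than in LPS lungs became 2 without LPS mouse 6 (8% against 13.6%), 2 without LPS mouse 7 (8% against 12.9%) and 3 without dual-treated mouse 5 (11.1% against 10.8%). With groups of this size, 3 and 3 or 3 and 2 mice, the smallest p an exact permutation test of a gene can give is 0.1. In whole lung RNA, fewer cells of a type and less RNA per cell cannot be told apart.

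**Figure D1:**
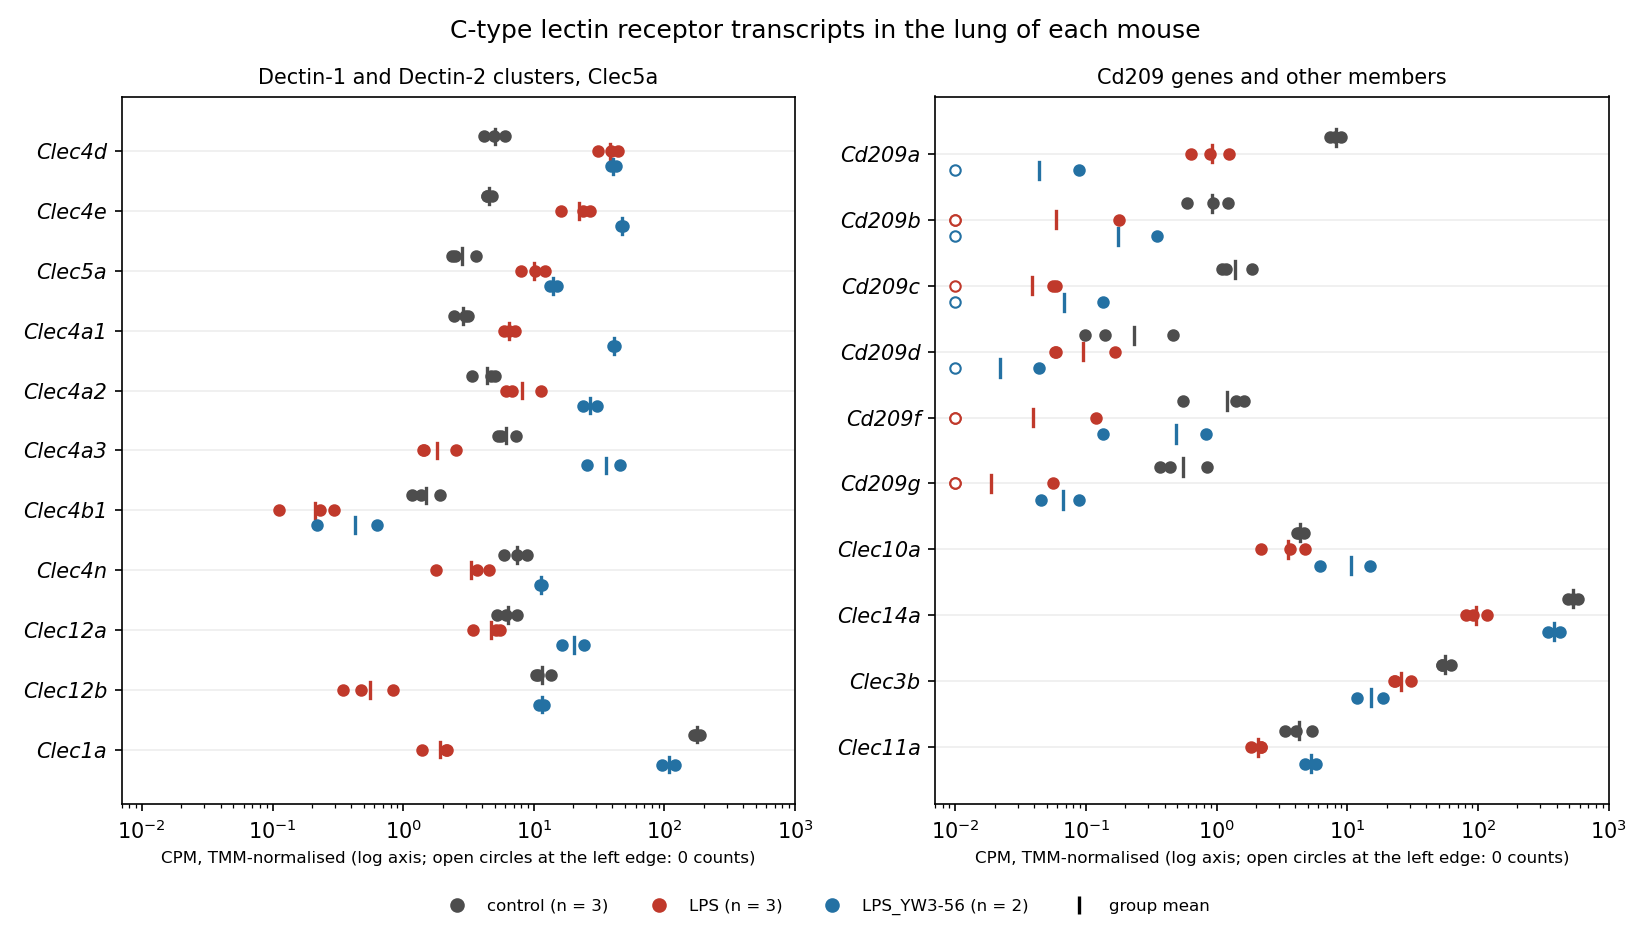
CPM of 21 members in each mouse on a log axis, with filled circles for mice, vertical ticks for group means and open circles at the left edge for libraries with 0 counts, some of which coincide. *Clec1a* lies between 169 and 187 CPM in control, between 1.39 and 2.18 in LPS and at 96.1 and 120 in dual-treated mice, and *Cd209a* falls from 8.96 CPM at most in control to 0.0878 at most in dual-treated mice.

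The activating receptors of the Dectin-2 cluster (chr6:122896122-123266829, GRCm39) include *Clec4e*, *Clec4d* and *Clec4n*. *Clec4d* (ENSMUSG00000030144), the partner of Mincle and like it a receptor for mycobacterial glycolipid, had 5.97, 4.13 and 4.92 CPM in control, 38.8, 44.4 and 31 in LPS and 42.2 and 38.8 in dual-treated mice. Every treated mouse was above every control mouse, and the treated groups overlapped. *Clec4d* had a log2FC of 2.93 with LPS (SE 0.177, edgeR adjusted p = 1.47e-06) and of 3.02 with the dual treatment (SE 0.187, edgeR adjusted p = 2.98e-05), and the treatments differed by 0.09 (SE 0.176, edgeR adjusted p = 0.677). *Clec4e* (ENSMUSG00000030142), which encodes Mincle, a receptor for glycolipid and for the nuclear protein Sap130 of dying cells, had 4.80, 4.36 and 4.37 CPM in control, 23.6, 26.7 and 16.1 in LPS and 46.3 and 48.2 in dual-treated mice. Its groups did not overlap and dual-treated lungs were highest. *Clec4e* rose by 2.29 with LPS (SE 0.186, edgeR adjusted p = 6.1e-06) and by 3.39 with the dual treatment (SE 0.199, edgeR adjusted p = 2.72e-05). The difference between the treatments was 1.09 (SE 0.186, edgeR adjusted p = 0.000812), but it was below the fold threshold at 0.90 without LPS mouse 7 and at 0.99 without LPS mice 6 and 7.

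*Clec4n* (ENSMUSG00000023349), Dectin-2, a receptor for fungal mannan, went another way than its neighbours *Clec4d* and *Clec4e*. It had 8.81, 5.91 and 7.49 CPM in control, 4.51, 3.70 and 1.79 in LPS and 11.5 and 11.1 in dual-treated mice. Every LPS mouse was below every control mouse and both dual-treated mice were above them. *Clec4n* fell by 1.15 with LPS (SE 0.307, edgeR adjusted p = 0.00809), a call lost at -0.84 without LPS mouse 7 and at -0.71 without LPS mice 6 and 7. From LPS to dual treatment it rose by 1.77 (SE 0.331, edgeR adjusted p = 0.00148), while dual-treated lungs were not called against control (log2FC 0.61, edgeR adjusted p = 0.235).

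*Clec5a* (ENSMUSG00000029915, chr6:40551234-40562773), a myeloid receptor that pairs with Tyrobp, lies outside the clusters. It had 3.62, 2.35 and 2.48 CPM in control, 10.2, 12.2 and 7.98 in LPS and 15.1 and 13.2 in dual-treated mice, so that control mice were lowest and the groups did not overlap. *Clec5a* rose by 1.84 with LPS (SE 0.232, edgeR adjusted p = 8.82e-05) and by 2.33 with the dual treatment (SE 0.248, edgeR adjusted p = 0.000414), and the difference between them did not pass the test (log2FC 0.48, edgeR adjusted p = 0.109). *Clec7a* (ENSMUSG00000079293), Dectin-1, the receptor for fungal β-glucan, was called in none of the 3 comparisons by edgeR's test on all 8 libraries under the usual filter. With the dual treatment against control it was called lower by DESeq2 (log2FC -1.27), with no filter on low counts (-1.25) and without dual-treated mouse 5 (-2.44), and against LPS without that mouse (-1.76). It had 27.7, 20.4 and 22.4 CPM in control, 15.8, 17.6 and 10.6 in LPS and 4.40 and 15.3 in dual-treated mice. Control mice were above all treated mice, but the dual-treated pair differed widely and was not called (log2FC -1.25, edgeR adjusted p = 0.0809, unadjusted p = 0.0171), and neither was LPS (log2FC -0.68, edgeR adjusted p = 0.134, unadjusted p = 0.1).

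Neutrophils carry *Clec4d*, *Clec4e* and *Clec5a*, and most of their markers were higher in both treated groups, as these genes were. The 8 markers, with *S100a9* the most abundant and none at 0, summed to 222, 122 and 130 CPM in control, 2200, 2990 and 1860 in LPS and 1720 and 2390 in dual-treated mice. Of the 8, 7 rose with LPS and 6 with the dual treatment, and none fell in either. Between the treatments they parted, since *Csf3r*, *Cxcr2*, *Retnlg* and *Mmp8* were higher in dual-treated lungs and *Ly6g* (log2FC -2.75) and *Camp* (log2FC -2.96) were lower. The part of neutrophil number in these receptor levels was not tested.

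The same cluster holds the DCIR genes *Clec4a1* to *Clec4a4*, relatives of human DCIR, whose best studied mouse form *Clec4a2* is an inhibitory receptor. *Clec4a1* (ENSMUSG00000049037) had 2.98, 3.14 and 2.44 CPM in control, 5.87, 7.22 and 6.42 in LPS and 40.6 and 41.7 in dual-treated mice. Groups were separate and the dual-treated pair was far above both others. *Clec4a1* rose by 1.19 with LPS (SE 0.155, edgeR adjusted p = 0.000111), which was 0.90 and below the fold threshold with library size as the only scaling, by 3.85 with the dual treatment (SE 0.165, edgeR adjusted p = 9.39e-06) and by 2.66 between the treatments (SE 0.157, edgeR adjusted p = 3.97e-06). *Clec4a2* (ENSMUSG00000030148) had 4.70, 3.38 and 5.01 CPM in control, 6.76, 11.4 and 6.08 in LPS and 30.4 and 23.8 in dual-treated mice. Here too the groups did not overlap, but the LPS group was not called (log2FC 0.89, edgeR adjusted p = 0.014, fold change under 2) unless control mouse 4 (1.01), LPS mouse 1 (1.01) or LPS mouse 7 (1.07) was left out. *Clec4a2* rose by 2.63 with the dual treatment (SE 0.284, edgeR adjusted p = 0.000437) and by 1.74 from LPS to dual treatment (SE 0.277, edgeR adjusted p = 0.000564).

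*Clec4a3* (ENSMUSG00000043832) was called in opposite directions by the treatments. It had 7.34, 5.58 and 5.33 CPM in control, 1.42, 2.54 and 1.45 in LPS and 25.3 and 45.4 in dual-treated mice. LPS mice were lowest and dual-treated mice highest, with no overlap. *Clec4a3* fell by 1.75 with LPS (SE 0.306, edgeR adjusted p = 0.000728), rose by 2.54 with the dual treatment (SE 0.294, edgeR adjusted p = 0.000642) and differed between the treatments by 4.29 (SE 0.326, edgeR adjusted p = 1.01e-05). *Clec4b1* (ENSMUSG00000030147), a DCIR-related activating receptor, had 1.91, 1.17 and 1.38 CPM in control, 0.297, 0.231 and 0.112 in LPS and 0.635 and 0.220 in dual-treated mice. Treated mice were below control and overlapped each other. *Clec4b1* fell by 2.77 with LPS (SE 0.552, edgeR adjusted p = 0.0016), and its dual-treated value was not called (log2FC -1.79, edgeR adjusted p = 0.0613, unadjusted p = 0.011) but was without LPS mouse 7 (-1.79) and with an unadjusted p. *Clec4a4* had at most 3 counts in any library and *Clec4b2* at most 1. The tested genes of this block therefore ranged from -2.77 to 2.93 with LPS and from -1.79 to 3.85 with the dual treatment.

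**Figure D2:**
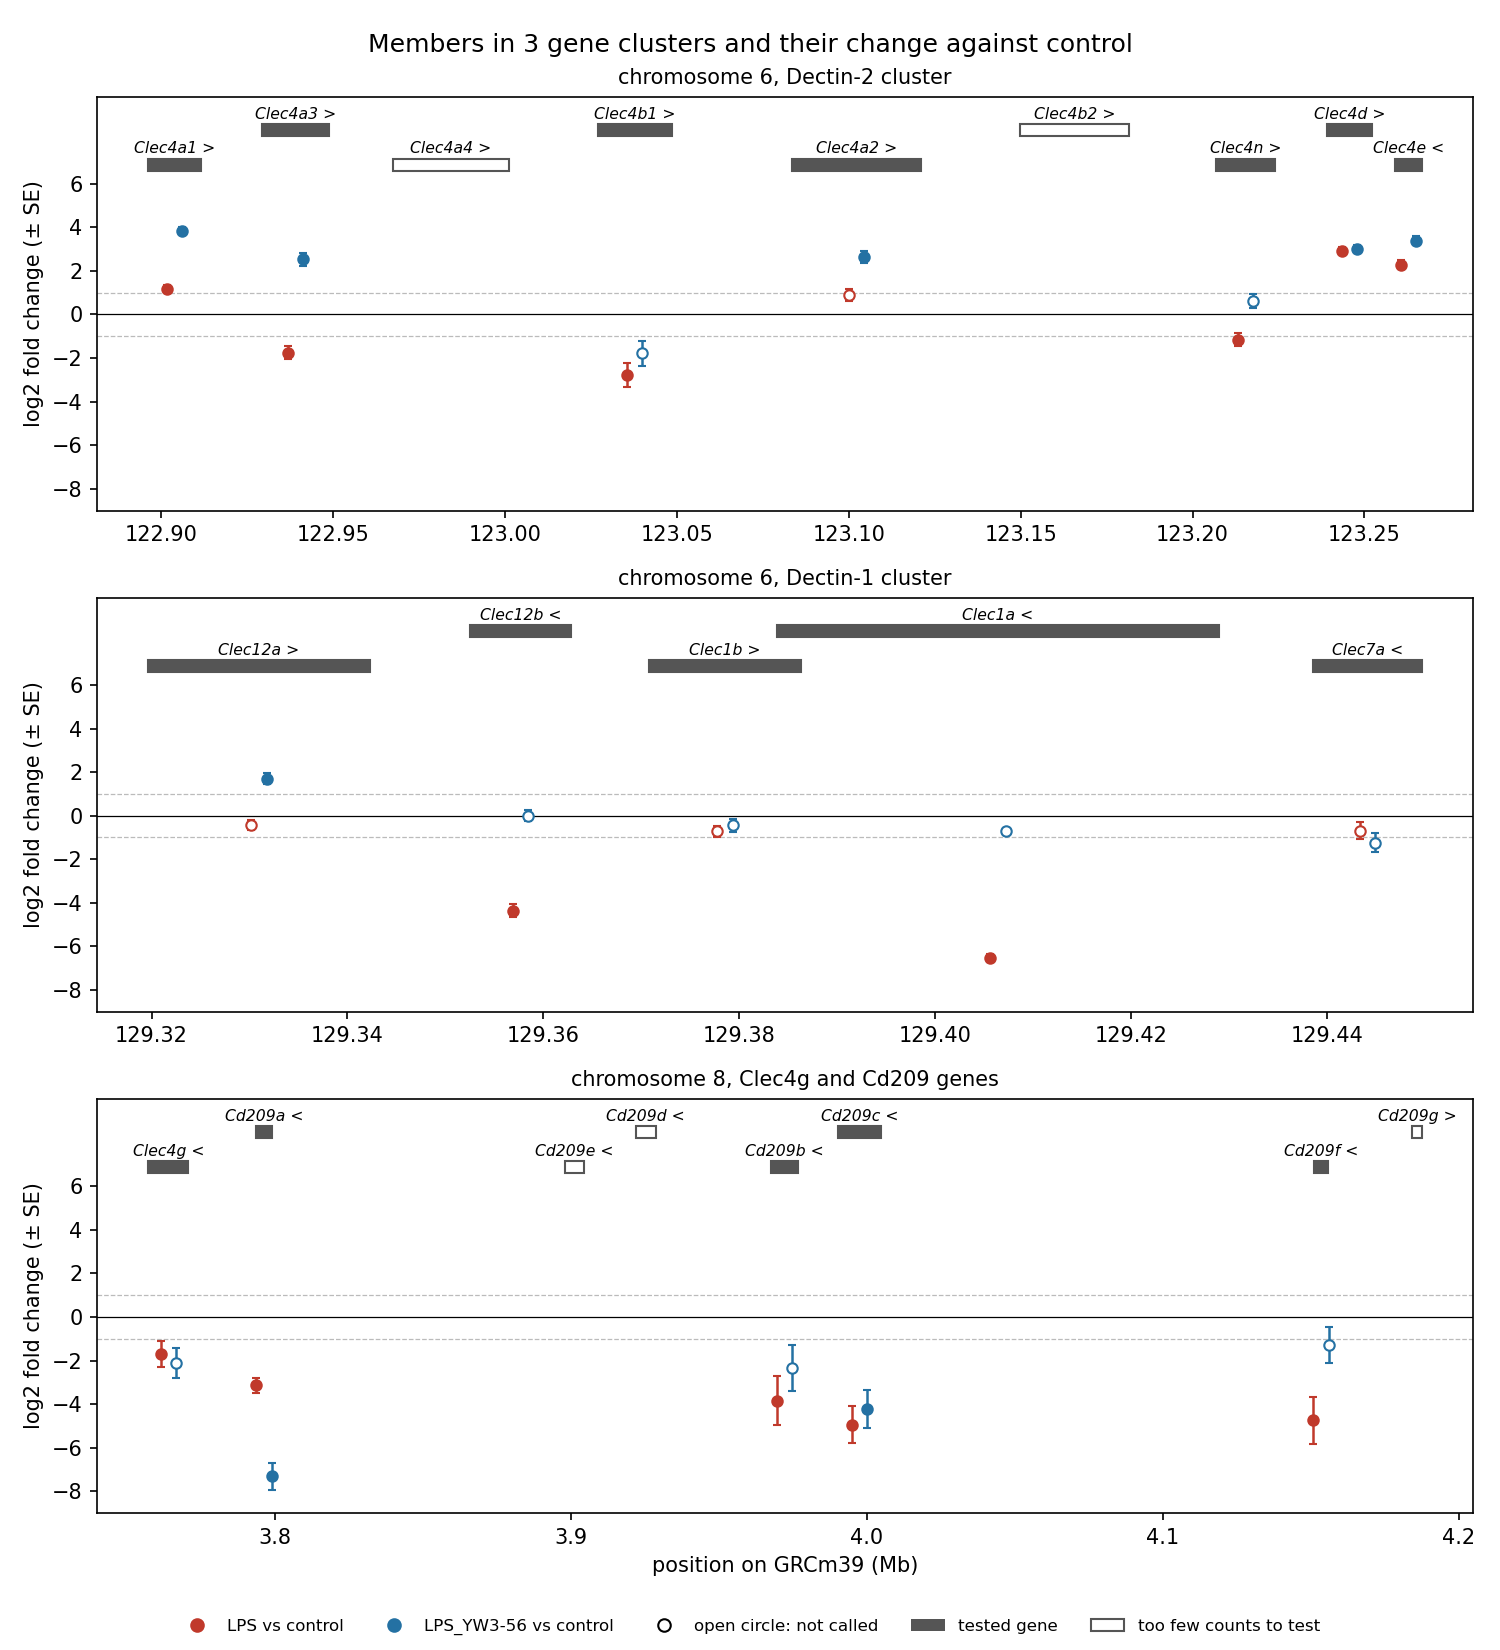
Members of 3 gene clusters drawn to scale along GRCm39, with the log2FC (± SE) of LPS (red) and dual-treated (blue) against control lungs of each tested gene, filled where called, dashed lines at a fold change of 2 and white boxes for members with too few counts to test. In the Dectin-2 cluster *Clec4d* and *Clec4e* are above 2 in both comparisons and *Clec4a3* lies at -1.75 and 2.54, while no *Cd209* gene lies above 0 in either.

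The Dectin-1 cluster (chr6:129319654-129449742) holds *Clec12a*, *Clec12b*, *Clec1b*, *Clec1a* and *Clec7a* among the members. *Clec12a* (ENSMUSG00000053063), an inhibitory receptor for uric acid crystals on myeloid cells, had 7.49, 5.26 and 6.12 CPM in control, 5.16, 5.54 and 3.41 in LPS and 16.5 and 24.2 in dual-treated mice. The dual-treated pair stood above the other 2 groups, which overlapped. *Clec12a* rose by 1.69 with the dual treatment (SE 0.256, edgeR adjusted p = 0.00254) and by 2.11 from LPS to dual treatment (SE 0.261, edgeR adjusted p = 0.000127), and LPS alone was not called (log2FC -0.42, edgeR adjusted p = 0.155). *Clec12b* (ENSMUSG00000030158), also an inhibitory receptor, had 10.7, 10.4 and 13.6 CPM in control, 0.475, 0.347 and 0.837 in LPS and 11.9 and 11 in dual-treated mice. Only LPS mice were low, and dual-treated mice lay within the control range. *Clec12b* fell by 4.36 with LPS (SE 0.292, edgeR adjusted p = 2.27e-06) and was higher by 4.35 in dual-treated than in LPS lungs (SE 0.304, edgeR adjusted p = 7.64e-06). Against control the dual-treated value was -0.01 (SE 0.25, edgeR adjusted p = 0.989), a sign that flips with library size as the scaling.

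Some macrophage and monocyte markers were also highest in dual-treated lungs, and others were not. The 7 interstitial macrophage markers, led by *Cbr2* and none at 0, summed to 3700, 4290 and 4390 CPM in control, 5520, 4740 and 5010 in LPS and 4380 and 4760 in dual-treated mice. Most of each sum came from *Cbr2*, which club cells of the airway also express, and in LPS lungs *Lyve1* added 2060, 1790 and 1500 CPM. Of these 7, 1 rose with LPS and 3 with the dual treatment, those 3 being *C1qa*, *C1qb* and *C1qc*, while the 1 with LPS was *Lyve1*. *C1qb* had 35.1, 27.2 and 38.3 CPM in control, 49.4, 50.4 and 42.3 in LPS and 184 and 169 in dual-treated mice. The 8 alveolar macrophage markers, led by *Chil3* and none at 0, summed to 946, 874 and 896 CPM in control, 1010, 1170 and 701 in LPS and 1760 and 1750 in dual-treated mice, where 1 rose against control and 3 against LPS. With LPS none of the 8 rose and 2 fell, *Siglecf* (log2FC -1.81) and *Ear2* (log2FC -2.45), and both of these were among the 3 higher with the dual treatment. Dual-treated mouse 2 owed 741 CPM of its sum to *Fabp4*, against 38.2 CPM in mouse 5. The 8 monocyte markers, led by *Ace* and none at 0, summed to 1320, 1210 and 1490 CPM in control, 1060, 722 and 626 in LPS and 1400 and 2030 in dual-treated mice. *Ace*, which lung endothelium also expresses, carried these sums in control and dual-treated lungs, with 1100, 1010 and 1270 CPM in control, 102, 60.5 and 91.3 in LPS and 923 and 1270 in dual-treated mice. With LPS 4 of them rose, *Ly6c2* (log2FC 3.37), *Plac8* (3.57), *Nr4a1* (2.87) and *Treml4* (1.4). The 4 that fell were *Ccr2* (-3.19), *Cx3cr1* (-3.18), *Csf1r* (-1.01) and *Ace* (-3.74), and with the dual treatment 4 rose and none fell. *Ccr2*, the chemokine receptor of inflammatory monocytes, had 21.7, 16.7 and 17.7 CPM in control, 2.31, 2.08 and 1.73 in LPS and 25.1 and 30.5 in dual-treated mice. It was thus lowest in LPS lungs, as *Clec4a3* was, while the 4 markers that rose with LPS went the other way. The part of macrophage and monocyte numbers in the member levels was not tested.

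The endothelial members *Clec1a* and *Clec14a* fell with LPS. *Clec1a* (ENSMUSG00000033082, chr6:129383906-129428963), an endothelial and myeloid receptor for fungal melanin, had 175, 187 and 169 CPM in control, 2.14, 1.39 and 2.18 in LPS and 96.1 and 120 in dual-treated mice. LPS libraries held 24 to 39 counts where control libraries held 3568 to 3989, and dual-treated mice lay between but near control. *Clec1a* fell by 6.54 with LPS (SE 0.178, edgeR adjusted p = 8.37e-08) and was higher by 5.82 in dual-treated than in LPS lungs (SE 0.180, edgeR adjusted p = 3.18e-07). Its difference between dual-treated and control lungs, -0.71, was under the fold threshold (SE 0.146, edgeR adjusted p = 0.0111). Of its 9766 exonic bases, 36.8% are also exonic in genes of the opposite strand, and the strand setting of the counting is not given, so reads of those genes cannot be told apart from its own there. *Clec14a* (ENSMUSG00000045930, chr12:58311506-58316076), an endothelial protein that binds the matrix protein Mmrn2 in vessel growth, had 486, 579 and 536 CPM in control, 91.2, 117 and 80.9 in LPS and 344 and 423 in dual-treated mice. The order of the groups was that of *Clec1a*, with no overlap. *Clec14a* fell by 2.47 with LPS (SE 0.161, edgeR adjusted p = 2.02e-06), was higher by 1.99 in dual-treated than in LPS lungs (SE 0.169, edgeR adjusted p = 1.69e-05) and was not called against control (log2FC -0.48, edgeR adjusted p = 0.0905). Its exons overlap no other gene.

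As a sum, endothelial markers had the same order of groups. The 8 markers, with *Cdh5* the most abundant and none at 0, summed to 4780, 4850 and 5200 CPM in control, 2380, 1950 and 1940 in LPS and 4020 and 4410 in dual-treated mice. With LPS 5 of the 8 fell and none rose, and 5 were higher with the dual treatment than with LPS. Against control 1, *Ptprb*, was lower with the dual treatment (log2FC -1.19, edgeR adjusted p = 0.0152). The markers were not alike, since *Ramp2* fell by 3.91 with LPS while *Cdh5* (log2FC 0.17) and *Cldn5* (log2FC -0.02) were not called, and *Pecam1* was highest in dual-treated lungs, at 1070 and 912 CPM. The median log2FC of the list was -1.88 with LPS, -0.2 with the dual treatment and 1.58 between the treatments. The part of endothelial cell number was not tested.

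*Clec1b* (ENSMUSG00000030159), CLEC-2, the platelet receptor for podoplanin, had 16.1, 14.5 and 18.7 CPM in control, 14.2, 9.12 and 6.70 in LPS and 10.1 and 13.9 in dual-treated mice. Control mice were highest, but the fold change stayed under 2 with LPS (log2FC -0.72, edgeR adjusted p = 0.0333). It passed the threshold with library size as the scaling (-1.02) and without LPS mouse 1 (-1.05), and was -0.48 without LPS mouse 7 and -0.21 without LPS mice 6 and 7. Of its exonic bases, 24.2% are shared with other genes. The 8 platelet markers, led by *Itga2b* and with *Gp1bb* at 0 in every library, summed to 92.9, 65.0 and 137 CPM in control, 243, 169 and 134 in LPS and 76.8 and 139 in dual-treated mice, and 2 of the 7 tested rose with LPS while none fell. With the dual treatment 1 was higher than in control and none lower, and 5 were lower than in LPS lungs and none higher, with a median log2FC of -1.24.

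The Cd209 genes lie in a block on chromosome 8 with *Clec4g* (chr8:3757064-4187714). *Cd209a* (ENSMUSG00000031494, chr8:3793397-3798984), the mouse gene most often called DC-SIGN and a marker of a subset of dendritic cells, had 7.39, 8.96 and 8.05 CPM in control, 1.25, 0.635 and 0.893 in LPS and 0 and 0.0878 in dual-treated mice. The libraries held 151, 191 and 175 counts in control, 21, 11 and 16 in LPS and 0 and 2 in dual-treated mice. No groups overlapped, and the dual-treated pair was lowest, below the LPS mice, which makes *Cd209a* the 1 member called lower in dual-treated than in LPS lungs. *Cd209a* fell by 3.13 with LPS (SE 0.350, edgeR adjusted p = 4.04e-05). From the summed counts, control lungs were 182-fold above dual-treated lungs (exact 95% interval 50.3 to 1510, edgeR adjusted p = 0.000107), and LPS lungs were 20.6-fold above them (5.41 to 175, edgeR adjusted p = 0.000593). These intervals cover counting error only. The fitted log2FC values of -7.32 against control and -4.19 against LPS were -6.46 and -3.32 without dual-treated mouse 2. Without mouse 5 they were -10.33 and -7.19, but that group then held 0 counts and those fits give no exact value. Against a floor of 3 counts, control lungs were then at least 59.8-fold and LPS lungs at least 6.77-fold above dual-treated lungs.

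The other Cd209 genes were sparse, and their fitted fold changes depend on a handful of counts. *Cd209b* (ENSMUSG00000065987), SIGN-R1, a receptor of marginal zone macrophages in the spleen, had 1.22, 0.939 and 0.598 CPM in control, 0.178, 0 and 0 in LPS and 0 and 0.351 in dual-treated mice. Control lungs were 15.9-fold above LPS lungs (exact 95% interval 5.16 to 79.1, edgeR adjusted p = 0.0131), and the dual-treated mice, at 0 and 8 counts, were not called except without mouse 5, which left 0 counts in that group. *Cd209c* (ENSMUSG00000040165) had 1.86, 1.17 and 1.10 CPM in control, 0.0593, 0 and 0.0558 in LPS and 0.136 and 0 in dual-treated mice. Control was above every treated mouse, by 35.7-fold against LPS (exact 95% interval 9.59 to 299, edgeR adjusted p = 0.000627) and by 20.5-fold against the dual treatment (6.78 to 101, edgeR adjusted p = 0.0114). Its fitted log2FC with the dual treatment, -4.24, was -3.31 without dual-treated mouse 5. Without mouse 2 the fit gave -7.78, but that group then held 0 counts. Control lungs were then at least 10.4-fold above it, against a floor of 3 counts. *Cd209f* (ENSMUSG00000051906) had 1.61, 1.41 and 0.552 CPM in control, 0.119, 0 and 0 in LPS and 0.136 and 0.834 in dual-treated mice. Control was above LPS by 30.8-fold (exact 95% interval 8.22 to 259, edgeR adjusted p = 0.00334) but overlapped the dual-treated pair, which held 3 and 19 counts. Dual-treated lungs were 12.8-fold above LPS lungs (exact 95% interval 3.14 to 112, edgeR adjusted p = 0.0332), a call that rested on mouse 5 and was lost without it (log2FC 1.65). It was also lost without LPS mouse 6 (2.94), without LPS mouse 7 (2.92) and without both (1.98). The value was 4.21 without dual-treated mouse 2. Without LPS mouse 1 the fit gave 6.34, but LPS lungs then held 0 counts. Dual-treated lungs were then at least 5.77-fold above LPS lungs, against a floor of 3 counts. The calls of *Cd209b* and *Cd209f* with LPS, with fitted values of -3.85 and -4.74, were lost without LPS mice 6 and 7, at -2.32 and -3.26. Without LPS mouse 1 the fits gave -7.24 and -7.61, but the LPS group then held 0 counts of either gene. Against a floor of 3 counts, control lungs were then at least 10.7-fold and 13.9-fold above LPS lungs.

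*Cd209d*, *Cd209e* and *Cd209g* did not pass the filter. *Cd209g* was tested, and called lower with LPS, with no filter on low counts, without dual-treated mouse 2 and without dual-treated mouse 5. It was also tested without LPS mice 6 and 7, but LPS mouse 1 alone held 0 counts of it, so that fit gives no exact value. *Cd209g* (ENSMUSG00000079168) had 0.440, 0.845 and 0.368 CPM in control, 0, 0 and 0.0558 in LPS and 0.0454 and 0.0878 in dual-treated mice. Control mice were above all treated mice, by 28.7-fold against LPS (exact 95% interval 4.83 to 1170) and by 8.23-fold against the dual treatment (2.60 to 41.8). *Cd209d* (ENSMUSG00000031495) had 0.0979, 0.141 and 0.460 CPM in control, 0.0593, 0.0578 and 0.167 in LPS and 0 and 0.0439 in dual-treated mice, with at most 10 counts in any library. It was not tested under the usual filter and was called in no comparison with no filter on low counts. Of its 15 control counts, 10 came from control mouse 4. *Cd209e* had at most 3 counts in any library. As stretches of 150 bases, the length of 1 read, 267 sequences occur in the transcripts of both *Cd209f* and *Cd209g*, or 25.5% and 26% of each gene, and their counts may be split between them. No such stretch was shared by the other *Cd209* genes.

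Dendritic cell markers gave mixed values. The 10 conventional dendritic cell markers, led by *Cd24a* and none at 0, summed to 582, 559 and 573 CPM in control, 1360, 1130 and 1200 in LPS and 888 and 480 in dual-treated mice. Most of each sum came from *Cd24a* and *H2-Ab1*, which other lung cells also express. With LPS 3 rose, *Ccr7* (log2FC 3.99), *Irf8* (2.17) and *Cd24a* (1.5). The 4 that fell were *Flt3*, *Zbtb46*, *Xcr1* and *H2-DMb2*, and with the dual treatment 1, *Xcr1*, fell. The median log2FC of the list was 0.11 with LPS, -0.31 with the dual treatment and -0.61 between the treatments. *Flt3*, the growth factor receptor of dendritic cells, had 4.11, 2.68 and 2.25 CPM in control, 1.07, 0.462 and 0.558 in LPS and 2.04 and 0.615 in dual-treated mice. It was lower with LPS (log2FC -2.11, edgeR adjusted p = 0.00514), and the dual-treated pair was not called against control (log2FC -1.18, edgeR adjusted p = 0.179). The part of dendritic cell number in the *Cd209a* level was not tested.

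Receptors for galactose and related sugars gave mixed values. *Clec10a* (ENSMUSG00000000318), a receptor of macrophages and dendritic cells for galactose and N-acetylgalactosamine, had 4.70, 4.27 and 4.09 CPM in control, 2.2, 4.74 and 3.63 in LPS and 15.0 and 6.19 in dual-treated mice. Both dual-treated mice were above all others, mouse 2 by much more than mouse 5. *Clec10a* was called higher with the dual treatment than in control (log2FC 1.28, SE 0.383, edgeR adjusted p = 0.0497) and than in LPS lungs (log2FC 1.59, SE 0.389, edgeR adjusted p = 0.00636), and without dual-treated mouse 2, the mouse high in B cell markers, both calls were lost at 0.48 and 0.78. The first was lost in 7 of 15 settings in all, among them the omission of any 1 control mouse (1.34, 1.27 and 1.21 without mice 1, 2 and 4) or of LPS mouse 7 (1.28). Against LPS the value was 2.26 without LPS mice 6 and 7. *Mgl2*, its close paralog and a C-type lectin outside the symbol rule, had 15.1, 16.1 and 17.2 CPM in control, 1.01, 1.91 and 1.51 in LPS and 1.23 and 1.98 in dual-treated mice. It was low in every treated mouse, unlike *Clec10a*, falling by 3.45 with LPS (SE 0.266, edgeR adjusted p = 4.72e-06) and by 3.33 with the dual treatment (SE 0.306, edgeR adjusted p = 0.000188). Of the stretches of 150 bases in *Clec10a*, 1.46% also occur in *Mgl2*. *Clec4g*, a receptor best known from liver sinusoids, had at most 1.17 CPM in any mouse and was called lower with LPS (log2FC -1.71, SE 0.589, edgeR adjusted p = 0.027). That call was lost without control mouse 2 (-1.48), without LPS mouse 7 (-1.33) and without LPS mice 6 and 7 (-1.32), and with the dual treatment *Clec4g* was not called (log2FC -2.13, edgeR adjusted p = 0.0632, unadjusted p = 0.0116) but was in a fit of those groups alone (-2.12), without LPS mouse 7 (-2.13) and with an unadjusted p. *Clec4f*, the galactose receptor of Kupffer cells, had 0 counts in all 8 libraries.

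*Clec3b* and *Clec11a* encode secreted proteins and were called lower with LPS, *Clec3b* also with the dual treatment. *Clec3b* (ENSMUSG00000025784, chr9:122979925-122987055), tetranectin, a plasminogen-binding protein of matrix and plasma, had 53.3, 62.2 and 52.7 CPM in control, 30.7, 23.1 and 22.9 in LPS and 11.9 and 18.6 in dual-treated mice. The groups were separate, with control highest and the dual-treated pair lowest, the order of *Cd209a*. *Clec3b* fell by 1.13 with LPS (SE 0.179, edgeR adjusted p = 0.000378), below the fold threshold at -0.86 without LPS mice 6 and 7, and by 1.88 with the dual treatment (SE 0.212, edgeR adjusted p = 0.000546). The difference between the treatments was under the fold threshold (log2FC -0.74, edgeR adjusted p = 0.0117) but past it without dual-treated mouse 5 (-1.12) and without LPS mice 6 and 7 (-1.02). *Clec11a* (ENSMUSG00000004473), a secreted growth factor of bone and marrow, had 5.38, 3.33 and 4.05 CPM in control, 2.2, 2.19 and 1.84 in LPS and 4.72 and 5.75 in dual-treated mice. LPS mice were lowest and the other groups overlapped. *Clec11a* fell by 1.03 with LPS (SE 0.249, edgeR adjusted p = 0.00485), so close to the threshold that it was lost in 5 of 15 settings, among them without control mouse 1 (-0.83), without LPS mouse 7 (-0.94) and without LPS mice 6 and 7 (-0.95). It was higher by 1.33 in dual-treated than in LPS lungs (SE 0.270, edgeR adjusted p = 0.00226).

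The Clec2 genes encode small lectin-like ligands for receptors of natural killer cells. *Clec2d* (ENSMUSG00000030157), the ligand of the inhibitory receptor Klrb1b, had 263, 198 and 202 CPM in control, 305, 166 and 201 in LPS and 114 and 121 in dual-treated mice. Both dual-treated mice were lowest, but the fold change against control stayed under 2 (log2FC -0.91, SE 0.241, edgeR adjusted p = 0.0317), as did that against LPS (log2FC -0.93, edgeR adjusted p = 0.00841). It was called lower than in control without control mouse 4 (-1), and lower than in LPS lungs without LPS mouse 6 (-1.11), without LPS mouse 7 (-1.01) and without both (-1.38). *Clec2i* ranged from 1.6 to 2.43 CPM and was called in no comparison by edgeR's test (adjusted p of 0.399, 0.856 and 0.656, unadjusted p of 0.344, 0.734 and 0.597), and the sign of its value with LPS and between the treatments flips with library size as the scaling. *Clec2e*, *Clec2f*, *Clec2g*, *Clec2h*, *Clec2l* and *Clec2m* had at most 14 counts in any library. *Clec16a*, which despite its name is an intracellular protein of autophagy, varied little among replicates, with 34.1, 34.1 and 33.6 CPM in control, 27.4, 26.2 and 26.7 in LPS and 31.3 and 29.7 in dual-treated mice. Its fold change with LPS was small (log2FC -0.34, SE 0.0871, edgeR adjusted p = 0.00647). *Clec18a* had 4 counts in 1 control library and 0 elsewhere, and *Clec3a* had 0 counts in all 8.

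Of 15 genes of the signalling pathway, all tested, 5 rose with LPS and none fell, and 8 rose with the dual treatment and none fell. In dual-treated lungs 2 were higher and 3 lower than in LPS lungs. Over all tested genes, 17.9% rose and 21.3% fell with LPS, and 5.25% and 1.9% with the dual treatment. Between the treatments 19.8% were higher and 14% lower. *Syk* rose by 1.90 with LPS (SE 0.133, edgeR adjusted p = 2.81e-06) and by 1.32 with the dual treatment (SE 0.142, edgeR adjusted p = 0.00044). The adaptor gene *Fcer1g*, the partner of Mincle and Dectin-2, rose by 2.49 and 2.35 in the same comparisons. The complex downstream of Syk parted. *Card9* had 23.2, 17.2 and 21.1 CPM in control, 9.73, 13.2 and 8.76 in LPS and 38.7 and 59.7 in dual-treated mice. It was lowest in LPS and highest in dual-treated lungs, without overlap, with a rise of 1.26 against control (SE 0.221, edgeR adjusted p = 0.00526) and 2.22 against LPS (SE 0.227, edgeR adjusted p = 4.63e-05), while the LPS value fell short of the fold threshold (log2FC -0.96, edgeR adjusted p = 0.00285). *Malt1* had 22.2, 23.5 and 25.7 CPM in control, 185, 126 and 108 in LPS and 31.9 and 31.6 in dual-treated mice. It was called higher than in control with LPS alone, as were *Bcl10* and *Traf6*. The rises of *Malt1*, *Bcl10* and *Traf6* with LPS were 2.55, 1.43 and 2.15, and their changes from LPS to dual treatment were -2.14, -1.03 and -2.02. *Tyrobp*, the adaptor of Clec5a, and *Ptpn6*, the phosphatase of inhibitory receptors, rose by 2.18 and 1.69 with the dual treatment, and with LPS their values were 1 and 0.72, neither of them called. The median log2FC of the 15 genes was 0.72, 1.26 and -0.14 in the 3 comparisons, against -0.01, 0.004 and 0.06 over all tested genes.

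Ligands and receptors that pair with members were measured for 7 genes, of which 5 were tested. *Mmrn2*, the ligand of Clec14a, had 27.0, 29.5 and 35 CPM in control, 9.79, 15.1 and 16.4 in LPS and 37.3 and 56.2 in dual-treated mice. It was lowest in LPS lungs, like *Clec14a*, with a fall of 1.15 (SE 0.217, edgeR adjusted p = 0.00119) and a rise of 1.76 from LPS to dual treatment (SE 0.235, edgeR adjusted p = 0.000201). *Pdpn*, the podoplanin gene, had 132, 112 and 107 CPM in control, 263, 241 and 167 in LPS and 100 and 97.6 in dual-treated mice. LPS mice were highest, and the gene was lower by 1.18 in dual-treated than in LPS lungs, written as a log2FC of -1.18 (SE 0.189, edgeR adjusted p = 0.000584). *Klrb1b*, the receptor for Clec2d, was lower in dual-treated than in control lungs (log2FC -1.6, edgeR adjusted p = 0.0242) and than in LPS lungs (log2FC -1.34, edgeR adjusted p = 0.0163). *Klrb1c* was higher with the dual treatment than with LPS (log2FC 1.37, edgeR adjusted p = 0.0234), *Sap130* was called in no comparison, and *Klrb1a* and *Klrb1f* had too few counts. The list had 1 gene lower and none higher with LPS, 1 lower and none higher with the dual treatment, and 2 in each direction between the treatments, with medians of -0.15, -0.03 and 0.09.

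Levels of different genes were set side by side as mean CPM per kilobase of exon. The length was that of all annotated exons of a gene merged. For some genes, such as *Clec7a* (2638 bases), it exceeds the canonical transcript, and the order of genes depends on this choice. In control lungs *Clec2d* was highest, at 182, followed by *Clec14a* at 117, *Clec3b* at 34.3, *Clec1a* at 18.1, *Clec7a* at 8.90, *Clec12b* at 7.10, *Clec4n* at 5.21 and *Cd209a* at 5.14 CPM per kilobase. In LPS lungs *Clec2d* was at 184, *Clec4d* at 23.7, *Clec14a* at 21.1 and *Clec3b* at 15.6, while *Clec1a* was at 0.195. In dual-treated lungs *Clec2d* was at 96.7, *Clec14a* at 83.9, *Clec4d* at 25.3, *Clec4a1* at 15.4, *Clec1a* at 11.1 and *Clec4a3* at 10.4 CPM per kilobase. *Clec4d* had been at 3.12 in control lungs.

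Promoter sequence is shown for the neighbours *Clec4d* and *Clec4e*, which rose together in both treatments, and for *Clec1a*, which had the lowest log2FC of all tested members with LPS. Each is the 250 bases before the annotated start of the Ensembl canonical transcript on GRCm39. The windows are chr6:123238826-123239075 on the + strand for *Clec4d*, chr6:123266830-123267079 on the - strand for *Clec4e* and chr6:129428964-129429213 on the - strand for *Clec1a*. Capitals mark matches to a motif searched on both strands, which were AP-1 (TGANTCA), C/EBP (TTGCNNAA), PU.1 (GAGGAAGT), and the consensus of the interferon response element ISRE and of NF-kB.
Clec4d: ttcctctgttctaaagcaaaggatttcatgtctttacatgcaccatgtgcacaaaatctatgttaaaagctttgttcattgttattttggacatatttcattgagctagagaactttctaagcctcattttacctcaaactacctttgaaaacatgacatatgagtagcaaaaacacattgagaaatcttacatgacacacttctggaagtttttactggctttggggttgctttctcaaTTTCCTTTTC
Clec4e: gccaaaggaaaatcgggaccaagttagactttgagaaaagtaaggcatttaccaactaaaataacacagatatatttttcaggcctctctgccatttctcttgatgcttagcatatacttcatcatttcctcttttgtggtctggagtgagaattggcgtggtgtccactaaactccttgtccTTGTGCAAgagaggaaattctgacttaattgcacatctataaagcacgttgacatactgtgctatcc
Clec1a: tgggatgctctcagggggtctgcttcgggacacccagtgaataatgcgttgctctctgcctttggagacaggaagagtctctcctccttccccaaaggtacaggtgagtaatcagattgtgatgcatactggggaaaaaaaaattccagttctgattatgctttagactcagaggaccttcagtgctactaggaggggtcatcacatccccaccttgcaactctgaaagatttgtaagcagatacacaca
The *Clec4d* window has 1 ISRE match starting 10 bases before the transcript start, read on the other strand, the *Clec4e* window has 1 C/EBP match starting 67 bases before it, also on the other strand, and the *Clec1a* window has no match to any of the 5. Among the windows of all 39 members, 4 held ISRE, 4 C/EBP, 5 AP-1, 1 PU.1 and 2 NF-kB. Over the 21769 protein-coding promoters of the same length the shares were 3.32% for ISRE, 9.34% for C/EBP, 6.17% for AP-1, 2.08% for PU.1 and 7.62% for NF-kB. Binding was not measured, and a match is a run of letters only.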

How the data were processed

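Lung RNA was sequenced from 8 mice in 3 groups given by the labels. Per the methods, the authors filtered reads with FastQC 0.11.9 and Trim Galore, aligned them to GRCm39 with HISAT2 2.2.1, counted them per gene with featureCounts 2.0.1 and deposited raw counts for each mouse. The annotation release, strand setting and handling of reads with several matches are not given in the sources used here. The dual-treatment group has 2 libraries, as in the authors' own analysis, and the other groups have 3.

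Of the 55416 identifiers, 54749 matched GENCODE M39, which gave symbols, lengths and coordinates, and the others held 0.0533% of counts. 1 gene that matches the symbol pattern and 1 gene of the marker lists are not reported here. Members and lists were chosen with earlier results of these data known. CPM and tests were computed from the counts by edgeR 4.0.16 under R 4.3.3, after filterByExpr by group (minimum count 10) and TMM. All 8 libraries entered 1 quasi-likelihood fit by group, which leaves 5 residual degrees of freedom. A call needed a fold change over 2 and a Benjamini-Hochberg adjusted p-value under 0.05 over all tested genes. DESeq2, a package that the authors also used, served here in version 1.42.0 as an alternative, beside other scalings, filters and thresholds and the omission of mice. The procedure was tested on simulated data in which 200 genes were changed by a log2FC of 2. It recovered 80% of them for LPS against control and 75.5% for the dual treatment against control. Of unchanged genes it called 0.0436% and 0.0654%. These values are for the comparisons with control only. Where a group held at most 3 counts, the ratio of summed counts scaled by library is given with an exact 95% interval, for counting error only.

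The members named with values in every mouse are the *Cd209* genes with at least 10 counts in 1 library and the members called in any comparison with a mean of at least 1 CPM in 1 group. *Clec7a*, *Clec1b*, *Clec2d*, *Clec4g*, *Clec16a* and genes named from the lists were added after their values were seen. Lists were 13 sets of cell type markers, other C-type lectins, signalling genes and partners, described by counts and medians without a test. No 2 libraries of a group agreed within sampling noise.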

Additional observations from a re-analysis of the deposited data

Results flagged for a closer look

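*Clec4a3* moved in opposite directions in the treated groups, since every LPS mouse was below and every dual-treated mouse above every control mouse. In the direct comparison of the groups the log2FC was 4.29 (SE 0.326, edgeR adjusted p = 1.01e-05 by the Benjamini-Hochberg method), and over 15 alternative settings it ran from 3.78 to 4.62.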

How the results depend on the processing

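No paired analysis was possible because any 2 of the groups share at most 1 mouse number. For the 41 called fold changes of members, 602 alternative values were computed. Of these, 574 were still called in the same direction, 28 kept the direction without being called, and 0 were reversed. Fold changes of *Cd209a*, *Cd209b*, *Cd209c*, *Cd209f*, *Clec12b*, *Clec4b1* and *Clec4g* have no value with at least 10 counts in every library, because these genes are then not tested, and *Cd209f* is also not tested when LPS and dual-treated libraries are fitted alone. Under that filter 18 members were tested, of which 6 were lower with LPS in place of 13 (33.3%, against 19.1% of all genes), 1 was lower with the dual treatment in place of 3 (5.56% against 2.13%), and 0 were lower in dual-treated than in LPS lungs in place of 1 (all genes 11.7%). That 0, from edgeR's quasi-likelihood test, compares with 1 at an unadjusted p under 0.05 and 1 with DESeq2 under the usual filter. Without LPS mice 6 and 7, 8 members were lower with LPS, and 3 were lower in dual-treated than in LPS lungs. With an unadjusted p and the fold threshold, 6 members were lower with the dual treatment than in control (24% against 3.43% of all genes), and with an adjusted p and any fold change, 5 (20% against 7.02%). The latter rule gave 3 members lower in dual-treated than in LPS lungs (12% against 27.4%). Leaving out 1 mouse at a time gave 3 to 5 members lower with the dual treatment than in control, and 1 to 3 lower than in LPS lungs. The highest counts arose without dual-treated mouse 5, and for the first also without LPS mouse 7. The other counts stayed within 1.5 times the main value under each alternative. With 1 mouse left in a group, that mouse is assumed to vary like the others.

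Library size in place of TMM moved the median log2FC of all tested genes to -0.29 with LPS and to 0.38 from LPS to dual treatment, and the share of calls that rose from 45.6% to 32.5% and from 58.5% to 74.7%. Signs of members flipped only for values near 0, those of *Clec2i* and *Clec2d* with LPS, *Clec12b* with the dual treatment and *Clec2i* between the treatments. Depth limits the *Cd209* genes other than *Cd209a*, which held at most 38 counts in any library.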

Other observations

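Other C-type lectins outside the symbol rule comprised 28 genes, of which 26 were tested. With LPS 11 rose and 6 fell, with the dual treatment 4 rose and 1 fell, and from LPS to dual treatment 5 were higher and 7 lower. The shares over all tested genes were 17.9% and 21.3%, 5.25% and 1.9%, and 19.8% and 14% in the same order. Their median log2FC was 0.09, 0.25 and 0.04, against -0.01, 0.004 and 0.06 over all tested genes. The selectins, adhesion lectins of leukocytes, endothelium and platelets, were among those that rose. *Selp* had 5.53, 4.83 and 5.24 CPM in control, 96.9, 82.1 and 96.1 in LPS and 38.6 and 7.60 in dual-treated mice. *Sele* had 1.13, 0.939 and 0.920 CPM in control, 18.5, 14.1 and 14.5 in LPS and 38.1 and 2.46 in dual-treated mice. Dual-treated mouse 2 was above mouse 5 in both, and in *Sele* above every LPS mouse. *Cd302* had 36.6, 30.6 and 31.3 CPM in control, 267, 237 and 180 in LPS and 76.8 and 62.2 in dual-treated mice, a rise of 2.80 with LPS (SE 0.165, edgeR adjusted p = 1.33e-06) and of 1.08 with the dual treatment (SE 0.172, edgeR adjusted p = 0.00324).

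Endothelial lectins that fell with LPS were *Thbd*, thrombomodulin, by 2.3 (SE 0.230, edgeR adjusted p = 2.07e-05) and *Cd93* by 1.17 (SE 0.180, edgeR adjusted p = 0.000332), and both were higher again in dual-treated lungs, by 1.86 and 1.46 against LPS. *Cd93* belongs with *Clec14a* to a small group of related endothelial receptors. *Klrd1*, a receptor of natural killer cells, had 3.13, 1.69 and 2.25 CPM in control, 0.178, 0.173 and 0.112 in LPS and 1.45 and 2.85 in dual-treated mice. LPS mice were lowest, and the dual-treated pair lay within or just under the control range. The lung collectin gene *Sftpd* had 1460, 1400 and 1550 CPM in control, 3380, 2910 and 2650 in LPS and 2590 and 1820 in dual-treated mice.

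The 8 fibroblast markers, led by *Pdgfra*, summed to 1020, 1040 and 980 CPM in control, 849, 1030 and 941 in LPS and 1050 and 774 in dual-treated mice, with 2 higher and 1 lower with LPS. The 8 natural killer and T cell markers, led by *Gzma*, summed to 22.2, 16.7 and 19.0 CPM in control, 50.6, 43.3 and 22.0 in LPS and 34.8 and 73.5 in dual-treated mice, with 1 higher and 2 lower with LPS.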
